A study of Mus musculus with 4 samples.

Results

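The genes described here are 7 regulators of the lens placode and lens epithelium, Pax6, Six3, Meis1, Foxe3, Pitx3, Sall1 and Mab21l1, chosen by name. Of these, 6 had a row among the 10790 genes of the deposited table, and Mab21l1 was not analysed here. The study compared whole lenses of Tdrd7 -/- mice, called Tdrd7 null here, with lenses of wild type control mice, all at postnatal day 4. Every library came from a pool of 15 lenses, with 2 libraries per genotype. Tdrd7 encodes a Tudor-domain protein of RNA granules. The sources used here give neither the strain and sex of the mice nor the position of the null mutation.

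The vertebrate lens forms from a patch of surface ectoderm, the placode, and throughout life keeps a single sheet of dividing epithelial cells over a mass of elongated, non-dividing fiber cells. PAX6, a paired-domain and homeodomain protein, is required for the placode to form, and SIX3 and MEIS1, both homeodomain proteins, act upstream of Pax6 in that ectoderm. FOXE3, a forkhead protein, and PITX3, a homeodomain protein, keep the epithelium proliferating and separate the lens from the surface, and mutations of either gene cause lens defects in mice and humans. SALL1 is a zinc finger protein of many embryonic tissues. Mab21l1 is needed for early lens growth in mice.

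In the Tdrd7 null lenses the mean of Foxe3 fell by 26.2% and that of Pitx3 fell by 23.4%, Sall1 was lower by a smaller amount that only just passed the test, and Pax6, Six3 and Meis1 did not pass. Foxe3 and Pitx3 are also the most GC-rich of the 6 genes, and over all genes the difference between the genotypes ran with GC content. The size of both differences depended on how that trend was treated. Neither passed the test with the GC and length trends of the transcripts removed, and both did with those of the coding sequences removed. A limma prior that ignores how spread changes with level left both short of the threshold (adjusted p = 0.0548 and 0.0547). In whole lenses, fewer epithelial cells and less RNA per cell cannot be told apart.

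Base composition is therefore shown first, with the opening 150 coding bases of the 2 genes with the largest differences, of Six3, whose coding sequence is nearly as GC-rich, and of Pax6. The sequences are from the GENCODE M21 annotation of GRCm38, read 5′ to 3′ on the coding strand, with G and C in capitals.
Foxe3: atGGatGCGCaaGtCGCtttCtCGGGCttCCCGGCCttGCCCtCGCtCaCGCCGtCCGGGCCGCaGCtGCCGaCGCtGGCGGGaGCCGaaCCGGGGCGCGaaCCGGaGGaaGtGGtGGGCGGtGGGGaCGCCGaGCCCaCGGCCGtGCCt
Pitx3: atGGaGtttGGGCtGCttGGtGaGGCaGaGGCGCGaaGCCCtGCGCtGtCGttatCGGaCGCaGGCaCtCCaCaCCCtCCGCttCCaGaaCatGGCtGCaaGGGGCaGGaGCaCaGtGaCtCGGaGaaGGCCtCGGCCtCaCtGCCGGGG
Six3: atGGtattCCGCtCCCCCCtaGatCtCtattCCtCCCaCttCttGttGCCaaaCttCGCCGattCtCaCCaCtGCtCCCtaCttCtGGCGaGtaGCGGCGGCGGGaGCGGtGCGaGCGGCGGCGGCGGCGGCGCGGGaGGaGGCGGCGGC
Pax6: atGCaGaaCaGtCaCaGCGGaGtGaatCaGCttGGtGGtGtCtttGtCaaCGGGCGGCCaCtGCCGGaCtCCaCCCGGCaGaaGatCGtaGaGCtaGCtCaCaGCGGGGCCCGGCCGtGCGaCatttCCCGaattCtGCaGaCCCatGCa
G and C made up 74% of the Foxe3 stretch, 64.7% of the Pitx3 stretch, 66.7% of the Six3 stretch and 60% of the Pax6 stretch. Over the whole coding sequence the GC content was 73.3% for Foxe3, 68.9% for Pitx3, 67.6% for Six3, 55.4% for Sall1, 52.8% for Pax6 and 51.8% for Meis1. Over the longest transcript, untranslated parts included, Foxe3 was at 73.1%, Pitx3 at 68.3% and Six3 at 53.4%, while Sall1 was at 51.6%, Pax6 at 49.3% and Meis1 at 42.4%. The GENCODE model of Foxe3 holds its coding sequence alone, 867 nt of the 977 nt that the deposited table gives the gene. If that span were its whole transcript, the other 110 nt could place its GC content anywhere between 64.9% and 76.2%. The RefSeq start used below lies beyond the deposited end of the gene, so the transcript may be longer and its GC content is not bounded by these values.

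Values are in scaled reads, meaning reads per gene after the authors' own scaling of each library, not corrected for length. The listed genes drew 39080159 and 33920522 reads in Tdrd7 null replicates 1 and 2, and 41096488 and 42767535 in control replicates 1 and 2. The members were covered by between 402 reads (Meis1 in Tdrd7 null replicate 2) and 4717 reads (Pax6 in control replicate 2). Tdrd7 itself was at 165 and 96.6 scaled reads in the Tdrd7 null libraries, against 1188 and 972 in the control libraries. Fold changes are log2 differences of (scaled reads + 1), tested with limma over 10696 genes, and "called" means a Benjamini-Hochberg adjusted p below 0.05. The labels call the libraries biological replicates. With 2 libraries on each side the smallest two-sided exact permutation p is 0.333, so ratios and summed levels are given with no test.

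**Figure D1:**
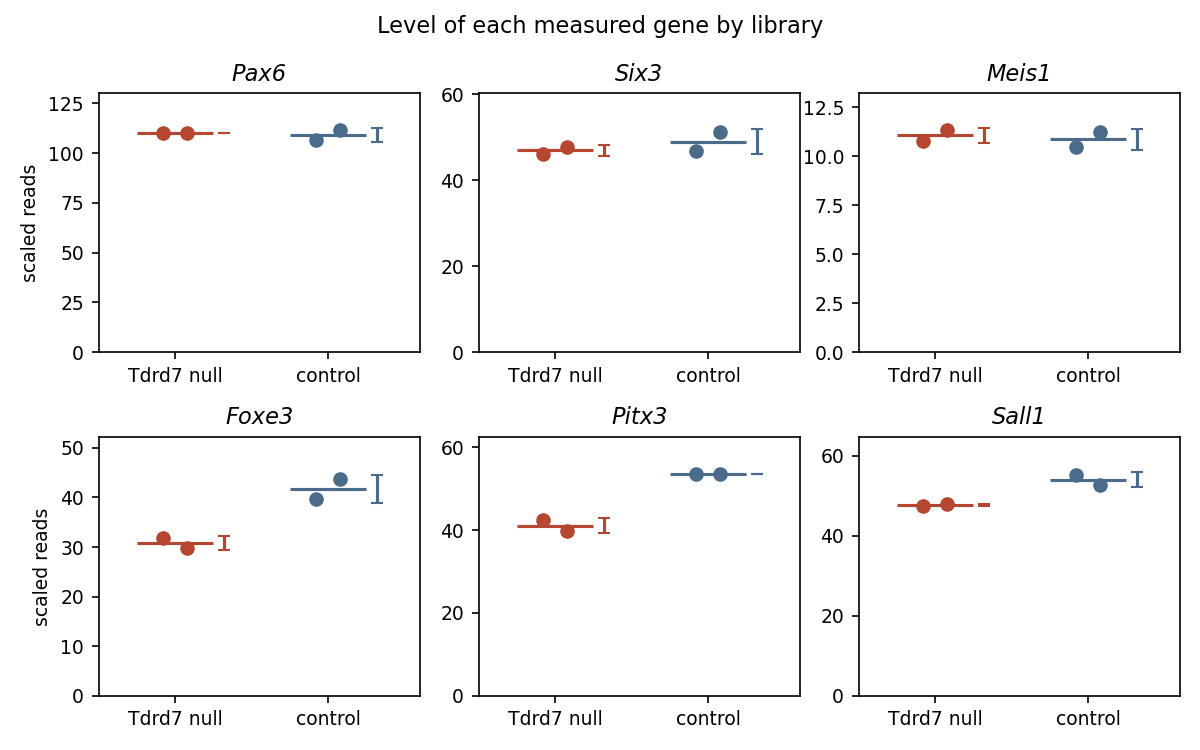
Scaled reads of the 6 measured genes, 1 panel each, in Tdrd7 null and control libraries (points, n = 2 each, with the mean as a line and the SD as a bar). Foxe3, Pitx3 and Sall1 lay lower in both Tdrd7 null libraries than in both control libraries, and the groups overlapped for Pax6, Six3 and Meis1.

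Among the placode genes, Pax6 (ENSMUSG00000027168, chromosome 2 from 105668896 to 105698410 in GRCm38) stood at 110.1 and 109.9 scaled reads in Tdrd7 null lenses, against 106.5 and 111.6 in control lenses. Both Tdrd7 null values lay between the control values. The log2 fold change was 0.01, with a 95% interval of -0.10 to 0.13 (limma adjusted p = 0.891).

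Six3 (ENSMUSG00000038805, chromosome 17 from 85613608 to 85631813) stood at 46.0 and 47.8 scaled reads in Tdrd7 null lenses, against 46.9 and 51.1 in control lenses. The groups overlapped, and the log2 fold change of -0.06 had a 95% interval of -0.19 to 0.07 (limma adjusted p = 0.525). The library kit does not mark strand, and Six3 shares 168 nt of exonic sequence with Gm28528 and 106 nt with Six3os1, both on the opposite strand, so its value is uncertain to that extent.

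Meis1 (ENSMUSG00000020160, chromosome 11 from 18880430 to 19018958) was the lowest of the 6 genes, at 10.8 and 11.3 scaled reads in Tdrd7 null lenses, against 10.5 and 11.2 in control lenses. The groups overlapped, with a log2 fold change of 0.02 and a 95% interval of -0.15 to 0.20 (limma adjusted p = 0.865). Meis1 shares 1029 nt with Gm37818 on its own strand and 896 nt with Gm16140 on the other. For Pax6, Six3 and Meis1 these intervals leave out a fall as large as that of Foxe3, described next, although a p that misses the threshold does not show equal levels.

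Among the epithelial genes, Foxe3 (ENSMUSG00000044518, chromosome 4 from 114925076 to 114926052) fell to 31.8 and 29.8 scaled reads in Tdrd7 null lenses, against 39.7 and 43.8 in control lenses. The means were 30.8 ± 1.45 in Tdrd7 null lenses and 41.7 ± 2.88 in control lenses (SD, n = 2), and the groups did not overlap. The log2 fold change was -0.43 (SE 0.0665, 95% interval -0.57 to -0.28, limma adjusted p = 0.00215), so the mean fell by 26.2%.

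Pitx3 (ENSMUSG00000025229, chromosome 19 from 46135685 to 46148375) fell to 42.4 and 39.7 scaled reads in Tdrd7 null lenses, against 53.6 and 53.5 in control lenses. The means were 41.1 ± 1.87 and 53.6 ± 0.0508 (SD, n = 2) in Tdrd7 null and control lenses, again without overlap. The log2 fold change was -0.38 (SE 0.0583, 95% interval -0.50 to -0.25, limma adjusted p = 0.00208), so the mean fell by 23.4%.

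Sall1 (ENSMUSG00000031665, chromosome 8 from 89027248 to 89044162) fell to 47.5 and 48.0 scaled reads in Tdrd7 null lenses, against 55.3 and 52.7 in control lenses. The groups did not overlap, but the log2 fold change of -0.17 (SE 0.0565, 95% interval -0.30 to -0.05) was close to the threshold (limma adjusted p = 0.0487). The call was lost without any 1 of the 4 libraries, where the fold change was between -0.21 and -0.14.

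In all, 3 of the 6 genes were called lower and 0 higher (limma, with 3 at an unadjusted p under 0.05). Among all 10696 tested genes 7.88% were called lower, 10.1% higher and 18.0% either way, and 3538 had an unadjusted p under 0.05. The median log2 fold change of the 6 genes was -0.12, against -0.01 over all tested genes. With a limma prior that ignores how spread changes with level, 0 of the 6 were called and 3 had an unadjusted p under 0.05. Foxe3 was then at an adjusted p of 0.0548 and Pitx3 at 0.0547 (limma). Over all genes 16 were called with that prior, and 3229 had an unadjusted p under 0.05. Scaling to the total without crystallins gave 766 calls higher and 1262 lower over all genes, against 1077 and 843 as deposited. The groups did not overlap, with Tdrd7 null lower, in these 3 genes and in 31.3% of all tested genes. Another 30.2% did not overlap with Tdrd7 null higher, 61.5% in all.

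Ratios of members within a library do not depend on how libraries were scaled. Pax6 over Foxe3 was 3.46 and 3.69 in Tdrd7 null libraries, against 2.68 and 2.55 in control libraries. Pax6 over Pitx3 was 2.60 and 2.77 in Tdrd7 null libraries, against 1.99 and 2.08 in control libraries. Both ratios were higher in each Tdrd7 null library than in each control library, so Foxe3 and Pitx3 were lower relative to Pax6. These ratios still hold the GC trend described below, with transcript GC content at 49.3% for Pax6, 73.1% for Foxe3 and 68.3% for Pitx3. Pax6 over Six3 did not overlap either, though neither gene was called. It was 2.39 and 2.30 in Tdrd7 null libraries, against 2.27 and 2.18 in control libraries. The ratio of Foxe3 to Pitx3 overlapped between the genotypes, at 0.751 and 0.749 in Tdrd7 null libraries, against 0.741 and 0.818 in control libraries.

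**Figure D2:**
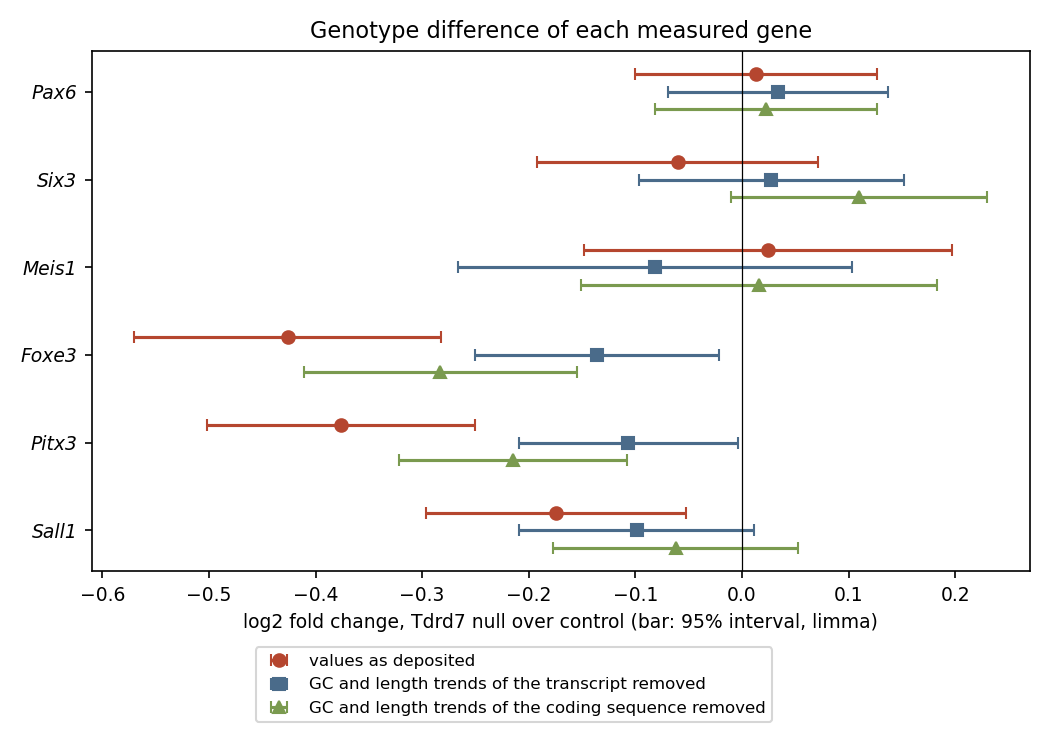
Log2 fold change of each gene, Tdrd7 null over control, with 95% intervals from limma (n = 2 libraries each), for the values as deposited and with the GC and length trends of the transcripts or of the coding sequences removed. Foxe3 stood at -0.43, -0.14 and -0.28 in the 3 fits and Pitx3 at -0.38, -0.11 and -0.21.

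The difference between the genotypes ran with base composition. Grouped by transcript GC content, the 610 genes below 40% had a median log2 fold change of 0.22, against 0.14 over the 2154 genes from 40% to 45%, 0.03 over the 2823 from 45% to 50%, -0.06 over the 2718 from 50% to 55%, -0.14 over the 1940 from 55% to 60% and -0.21 over the 372 from 60% to 65%. The 39 genes at 65% or more, Foxe3 and Pitx3 among them, had a median of -0.30, and 46.2% of them were called lower. The difference from the median of the own class was -0.12 for Foxe3, -0.07 for Pitx3, -0.11 for Sall1, -0.11 for Meis1, -0.02 for Pax6 and 0.002 for Six3.

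**Figure D3:**
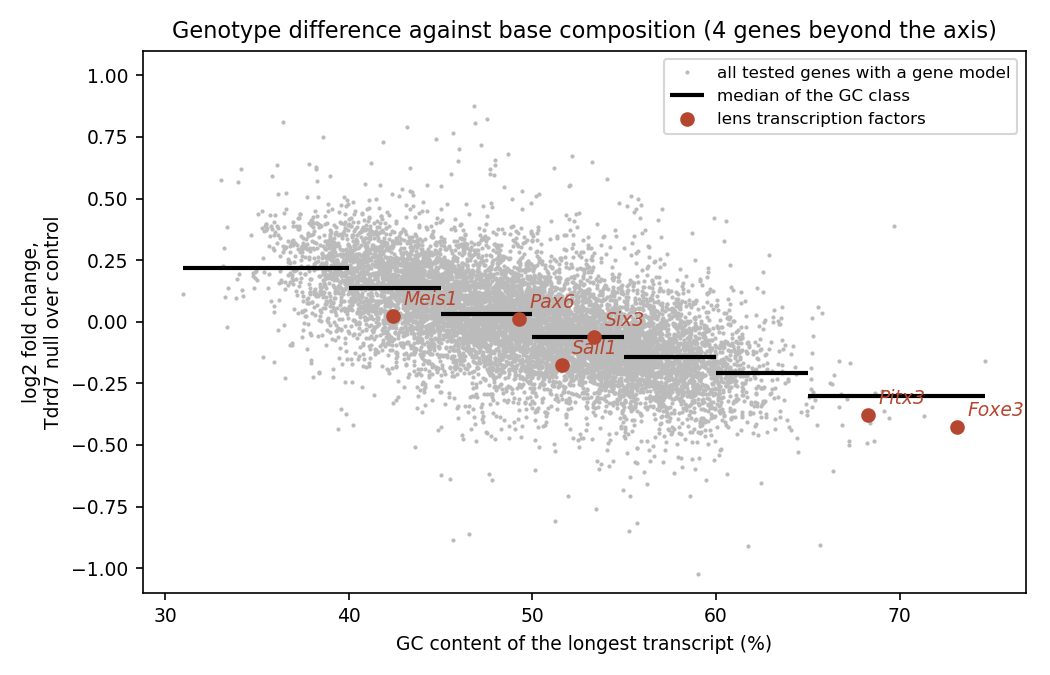
Log2 fold change, Tdrd7 null over control, against the GC content of the longest transcript for 10650 genes (grey points), with the median of each GC class as a black line and the 6 lens transcription factors in red. Foxe3 and Pitx3 lie at the GC-rich end, where the class median is -0.30, and 4 genes fall beyond the axis.

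With the trends on GC content and length of the longest transcript removed from each library, Foxe3 stood at -0.14 (SE 0.0525, 95% interval -0.25 to -0.02, limma adjusted p = 0.189) and Pitx3 at -0.11 (SE 0.0471, 95% interval -0.21 to -0.004, limma adjusted p = 0.248). Sall1 stood at -0.10 (limma adjusted p = 0.320), Meis1 at -0.08, Six3 at 0.03 and Pax6 at 0.03. By limma 0 of the 6 genes were called and 2 had an unadjusted p under 0.05. Among all 10696 tested genes 1.28% were called lower and 1.92% higher, 3.20% in all, and 2002 had an unadjusted p under 0.05.

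Because the model of Foxe3 holds no untranslated part, the trends were also removed by the GC content and length of the coding sequences, an alternative chosen after seeing the data. Foxe3 then stayed called at -0.28 (SE 0.0589, 95% interval -0.41 to -0.16, limma adjusted p = 0.0223) and Pitx3 at -0.21 (SE 0.0493, 95% interval -0.32 to -0.11, limma adjusted p = 0.0338), where 1.47% of all tested genes were called lower and 2.23% higher. Sall1 stood at -0.06 (limma adjusted p = 0.563) and Six3 at 0.11 (95% interval -0.01 to 0.23, limma adjusted p = 0.302). This fit left part of the transcript trend in place. Across 10619 genes, not independent of one another, fold change and transcript GC had a Pearson's r of -0.596 before removal, -0.132 after removal by coding sequence and -0.0016 after removal by transcript, and the median of the 39 most GC-rich genes was -0.15 and -0.04 after the 2 removals. In the data as deposited, among 202 genes with a coding GC content of 65% or more, which hold Six3, Foxe3 and Pitx3, the median was -0.16 and 22.8% were called lower, and Six3 was at -0.06.

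Levels of different genes can be compared only per length. On that scale Foxe3 averaged 41.8 scaled reads per kb of its longest transcript over the 4 libraries, Pitx3 34.3, Pax6 24.7, Six3 13.04, Sall1 9.67 and Meis1 1.45. Foxe3 was above 94.9% of 10750 genes by this measure and Meis1 above 27.4%. In each library the order was the same. Foxe3 stood at 36.7 and 34.3 in Tdrd7 null libraries, against 45.8 and 50.5 in control libraries, and Pitx3 at 30.7 and 28.8 in Tdrd7 null libraries, against 38.8 and 38.8 in control libraries. These neighbours overlap over the 4 libraries, since Foxe3 in Tdrd7 null lenses lay below Pitx3 in control lenses, while Pax6, Six3, Sall1 and Meis1 did not overlap with their neighbours. The order rests on the transcript taken. For Foxe3 the length used, 867 nt, holds its coding sequence alone, so its level per kb may be too high and its place above Pitx3 is uncertain. Per kb of all annotated exons, Pax6 came to 9.36 and Six3 to 8.81, both below Sall1 at 9.67. The annotated exons span 11694 nt for Pax6, 5446 nt for Six3 and 5265 nt for Sall1.

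**Figure D4:**
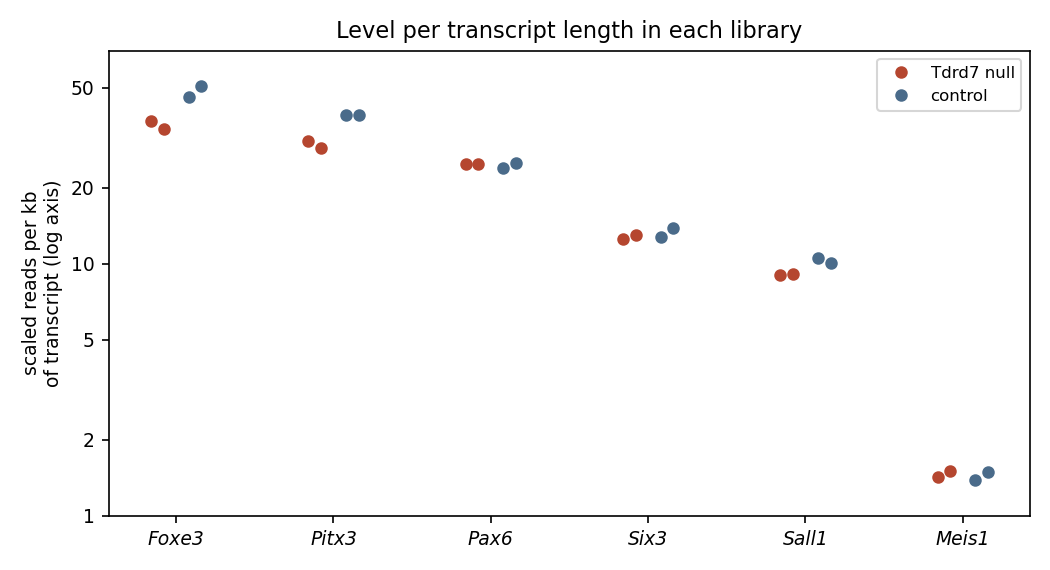
Scaled reads per kb of the longest transcript (log axis) of the 6 genes in each Tdrd7 null and control library (n = 2 each). The genes stand in order of their mean over the 4 libraries, with Foxe3 at 41.8 and Meis1 at 1.45.

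The windows of 250 bases before the transcription start of the 3 genes that fell, and of Pax6, are shown to compare their sequence. They are from RefSeq on GRCm38.p6, 5′ to 3′ on the strand of the gene. RefSeq gives Sall1 and Pax6 more than 1 start, and the window of the first listed start is shown. Capitals mark any of 6 motifs on either strand: TAATCC (bound by bicoid-type homeodomains such as that of PITX3), TGACAG (bound by TALE homeodomains such as that of MEIS1), TAAACA (a forkhead core), CCAAT (the CCAAT box), TATAAA (the TATA box) and GGGCGG (the GC box).
Foxe3, chr4:114926068-114926317, minus strand: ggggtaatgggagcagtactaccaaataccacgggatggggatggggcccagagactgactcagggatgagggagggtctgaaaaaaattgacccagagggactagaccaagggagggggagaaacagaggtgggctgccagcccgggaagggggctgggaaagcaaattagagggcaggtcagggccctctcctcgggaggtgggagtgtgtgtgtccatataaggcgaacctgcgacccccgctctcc
Pitx3, chr19:46148326-46148575, minus strand: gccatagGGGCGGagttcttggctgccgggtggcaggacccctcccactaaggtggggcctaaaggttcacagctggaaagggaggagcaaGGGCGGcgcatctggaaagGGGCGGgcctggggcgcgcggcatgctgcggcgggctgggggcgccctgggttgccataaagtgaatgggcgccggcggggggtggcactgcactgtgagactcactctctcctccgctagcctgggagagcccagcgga
Sall1, chr8:89044163-89044412, minus strand: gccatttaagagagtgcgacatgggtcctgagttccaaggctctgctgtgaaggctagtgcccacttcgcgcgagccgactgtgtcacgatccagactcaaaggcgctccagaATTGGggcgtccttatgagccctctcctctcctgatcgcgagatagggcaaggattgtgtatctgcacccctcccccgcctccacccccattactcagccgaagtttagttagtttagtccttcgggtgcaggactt
Pax6, chr2:105668646-105668895, plus strand: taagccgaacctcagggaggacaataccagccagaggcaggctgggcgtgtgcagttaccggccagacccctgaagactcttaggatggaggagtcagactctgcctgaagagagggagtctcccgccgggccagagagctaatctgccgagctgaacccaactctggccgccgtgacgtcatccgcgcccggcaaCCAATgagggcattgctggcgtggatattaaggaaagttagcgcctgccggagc
The Foxe3 window holds none of these 6 words. The Pitx3 window holds GGGCGG at 3 places, and the printed Sall1 and Pax6 windows each hold CCAAT once. At the other starts, Sall1 has GGGCGG at 4 places before the second and once before the third, and Pax6 has TGACAG once. Over all 32851 promoter windows, GGGCGG is found in 32.7%, CCAAT in 33.8%, TGACAG in 15.9%, TATAAA in 12.4%, TAAACA in 12.03% and TAATCC in 6.25%. TAAACA was in none of the windows of the 6 genes. The window of Six3 holds CCAAT at 3 places and TGACAG once, and that of Meis1 holds CCAAT once. GC content was 60% in the Foxe3 window, 68.8% in the Pitx3 window, 56.4% in the Sall1 window and 60.8% in the Pax6 window, against a median of 52.4% over all windows. No motif of the 6 was common to Foxe3, Pitx3 and Sall1.

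None of the nearest measured genes beside Foxe3, Pitx3 and Sall1 was called lower. Foxe3 lies 68.9 Mb from Tdrd7 on the same chromosome. Its nearest measured neighbours were Cmpk1, 33.3 kb away, which rose by a log2 fold change of 0.35 (limma adjusted p = 0.00449), and Trabd2b, 310 kb away, at -0.02 (limma adjusted p = 0.895). Beside Pitx3, Gbf1, 4.13 kb away, stood at -0.11 (limma adjusted p = 0.172) and Nolc1, 50.2 kb away, at -0.05 (limma adjusted p = 0.607). Beside Sall1, Cyld was at 0.23 and Tox3 at -0.05, and neither was called.

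Genes with the most similar pattern over the 4 libraries were sought among the 7865 genes averaging 5 scaled reads or more, by the largest absolute difference of centred log2 values. For Foxe3 they were Map1s, Sdc3 and Gpsm3, within 0.019, 0.026 and 0.029. For Pitx3 they were Emc1, Arhgef1 and C130057N11Rik, within 0.011, 0.012 and 0.018, and for Sall1 Trabd, Hectd3 and Clstn1, within 0.007, 0.010 and 0.011. Of these 9 genes 8 had a transcript GC content between 55.1% and 62.1%, and Emc1 was at 50.7%. These genes were picked by their pattern, and fold change ran with GC content over all genes, so their GC content is no separate observation. For Pax6 the nearest were Stk40, Trappc11 and Akirin2, for Six3 Pdxdc1, Slc25a25 and Zfp513, and for Meis1 Crybb3, Idh3b and Abcf3. Of these, Stk40 was at 56.5%, Zfp513 at 61.1% and Crybb3 at 55.4%, and the others were between 47.2% and 52.6%.

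Of 28 relatives in the same protein families, 14 were measured. By limma 1 was called higher and 0 lower, where 18.0% of all tested genes were called either way. The median log2 fold change of the relatives was -0.03. Foxc1, a forkhead gene of the tissue around the eye, rose to 2.90 and 2.98 scaled reads in Tdrd7 null lenses, against 1.86 and 1.82 in control lenses, a log2 fold change of 0.47 (limma adjusted p = 0.0158). It was also called with the transcript trends removed, at 0.64. The TALE gene Pbx3 stood at -0.001 and Meis2, the closest relative of Meis1, at -0.003, and neither was called. With the transcript trends removed Pbx3 stood at -0.23 (95% interval -0.38 to -0.08, limma adjusted p = 0.0869) and Meis2 at -0.09.

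Of 34 other transcription factors of the lens, 26 were measured, 2 were called higher and 3 lower, a share near the 18.0% called over all tested genes, and 21 did not pass, with a median log2 fold change of -0.04. Hmx1, a homeodomain gene, fell to 33.0 and 31.5 scaled reads in Tdrd7 null lenses, against 44.5 and 46.5 in control lenses (log2 fold change -0.49, limma adjusted p = 0.000632). Its transcript is as GC-rich as that of Pitx3, at 68.6%, and with the transcript trends removed it stayed called at -0.20 (limma adjusted p = 0.0403). Hsf4, a heat shock factor (-0.27), fell, while Zeb1, a zinc finger repressor of epithelial genes (0.32), and Gtf2h1, a subunit of a general transcription factor (0.25), rose. With the transcript trends removed Zeb1 kept its call at 0.28, and Hsf4 and Gtf2h1 lost theirs, at -0.09 and 0.13. Hmx1 shares 175 nt with 4930442P19Rik and Zeb1 198 nt with Gm10125, both on the opposite strand.

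Genes reported to lie downstream of these regulators were not called. Of 15 listed, 12 were measured, limma called 0, and 1 had an unadjusted p under 0.05. Over all 10696 tested genes limma called 18.0% either way, and 3538 had an unadjusted p under 0.05. Downstream of PAX6, the alpha crystallins Cryaa and Cryab, which are structural proteins and chaperones, stood at -0.09 and -0.09, the fiber regulators Prox1 and Maf at 0.02 and 0.17, Tgfb2, a growth factor, at 0.07 and Tfap2a, an epithelial transcription factor, at 0.04. Downstream of FOXE3, the growth factor receptor Pdgfra stood at 0.09, the adhesion gene Cdh1 at -0.02 and Dnajb1, a co-chaperone reported as a target, at 0.08. The cell cycle inhibitors Cdkn1b and Cdkn1c stood at 0.12 and -0.04, and Mip, a water channel of fibers reported as a PITX3 target, at -0.06. Maf had the smallest p (limma adjusted p = 0.0746) and was called higher with the coding trends removed, at 0.34 (limma adjusted p = 0.0134). The list's median was 0.03. Of these 12 genes 9 share exonic sequence with genes on the opposite strand, from 124 nt (Tgfb2) to 1223 nt (Mip, with Gm26847), the others being Maf, Pdgfra, Cryaa, Cryab, Cdkn1c, Tfap2a and Prox1, so their values are uncertain to that extent.

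Markers of the epithelium, the layer in which Foxe3 and Pitx3 are made, gave calls in both directions. Dkk3, a secreted Wnt modulator with the most scaled reads of the markers, not corrected for length, stood at -0.01. Sparc, a matrix protein gene, stood at 0.09, and Sfrp1, a Wnt antagonist, at 0.05. Of 20 markers 19 were measured, 4 were called higher and 2 lower, where 10.1% of all tested genes were called higher and 7.88% lower. The median log2 fold change of the markers was 0.08. Their summed level was 6749 and 6584 scaled reads in Tdrd7 null lenses, against 6432 and 6452 in control lenses. Dkk3, Sparc, Mgarp and Sfrp1 held the largest parts of that sum, so it says little about markers with fewer reads. Igfbp5, an insulin-like growth factor binding protein (0.37), Abcg2, an efflux pump (0.36), the gap junction gene Gja1 (0.33) and the mitochondrial gene Mgarp (0.23) rose. The glucose transporter Slc2a1 (-0.27) and the Wnt ligand Wnt7b (-0.26) fell. With the transcript trends removed Igfbp5 alone was called, at 0.43, and Slc2a1 and Wnt7b stood at -0.18 and -0.07. With the coding trends removed 3 markers were called higher, Igfbp5 at 0.50, Gja1 at 0.35 and Mgarp at 0.29, and 0 lower (limma). Slc2a1 shares 105 nt with Gm12868 and Wnt7b 324 nt with AU022754, both on the opposite strand. The part of the number of epithelial cells in the falls of Foxe3 and Pitx3 was not tested.

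**Figure D5:**
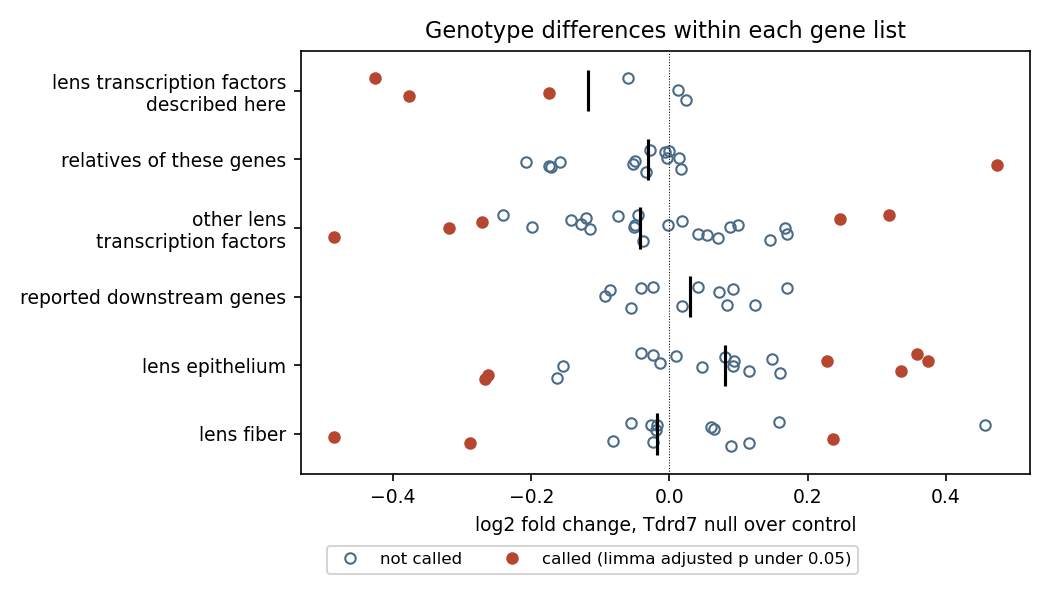
Log2 fold change, Tdrd7 null over control, of each measured gene in 6 lists, with called genes filled and the median of each list as a black line. The 6 lens transcription factors have a median of -0.12 and the 19 epithelial markers one of 0.08.

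Fiber cell markers were all measured. The most abundant were Crygs, a crystallin, at -0.02 and Bfsp1, a beaded filament protein, at 0.16. Of 15, Caprin2, an RNA-binding protein gene, was called higher (0.24), Hmx1 and the actin-capping gene Tmod1 (-0.29), which lies 4.17 kb from Tdrd7 and shares 1287 nt with Tstd2 on the opposite strand, were called lower, and the median was -0.02. The share called over all tested genes was 10.1% higher and 7.88% lower. With the transcript trends removed Caprin2 stood at 0.04 and Tmod1 at -0.26, neither called, and Hmx1 stayed called lower. The summed level of the fiber markers was 32202 and 29331 scaled reads in Tdrd7 null lenses, against 28536 and 30847 in control lenses. Crygs, Bfsp1 and Mip held the largest parts of that sum. Pax6, Six3 and Meis1 are also expressed in retina and ciliary body, and Foxc1 in mesenchyme, so other tissues of the eye were checked. Of 15 retina markers 2 were measured, Glul (-0.33, not called) and Elavl4 (0.48, called higher by limma, but at 0.28 and not called with the transcript trends removed), with sums of 4.66 and 4.59 in Tdrd7 null lenses, against 4.37 and 4.94 in control lenses. The photoreceptor gene Crx was not among the listed genes. Of 9 pigment cell markers 2 were measured, Oca2 (-0.17) and Tyrp1 (0.18), neither called, with sums of 6.28 and 5.97 in Tdrd7 null lenses, against 5.74 and 7.29 in control lenses. Of 7 cornea and 9 macrophage and blood markers 0 were among the listed genes. Of 8 markers of mesenchyme around the eye 2 were measured, Foxc1 and Col1a2, with sums of 5.48 and 5.29 in Tdrd7 null lenses, against 3.62 and 3.90 in control lenses. Of 10 blood vessel markers 9 were measured, with sums of 44.1 and 52.6 in Tdrd7 null lenses, against 63.9 and 47.0 in control lenses. Libraries of the same genotype differed in some of them. Control replicates 1 and 2 had Cdh5 at 3.47 and 1.09 and Rgs5 at 7.53 and 2.86, but Tek at 7.26 and 7.02. Tdrd7 null replicates 1 and 2 had Cdh5 at 2.23 and 3.72 and Rgs5 at 5.05 and 7.80, but Tek at 6.57 and 7.12. By limma Notch3 (-0.50) and Pdgfrb (-0.34) were called lower among the vessel markers, where 7.88% of all tested genes were. With the transcript trends removed neither was called, at -0.26 and -0.19. The other 7 were not called, Tek at -0.05 and Rgs5, Pecam1, Cdh5, Kdr, Tie1 and Cldn5 between 0.12 and 0.35, and the list's median was 0.14. The part of these tissues in the results above was not tested.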

How the data were processed

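The authors deposited 1 signal value per gene and library, 10790 genes in all. In each library the deposited signal rose in equal steps shared by all genes (to within 0.001 of a step), as read counts divided by a single number would, so gene length was not corrected for. The step was 0.0266 and 0.0282 in Tdrd7 null replicates 1 and 2 and 0.0241 and 0.0237 in control replicates 1 and 2. The submitters' processing notes name Trimmomatic, TopHat2 2.0.9, Cufflinks, Cuffnorm and mm10 (GRCm38). No source used here gives the read counter or the scaling. Each listed gene reached at least 1 in some library. Library preparation with a TruSeq RNA kit follows the series' design text.

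Log2(scaled reads + 1) of 10696 genes with a mean of 1 or more was tested with limma 3.58.1 in R 4.3.3 (intensity-dependent prior, two-sided, residual degrees of freedom 2, prior 11.1). All 6 measured members passed that filter. Lengths, GC content and coding sequences came from GENCODE M21, which held 10750 of the genes. Trends were removed per library with natural splines of 5 degrees of freedom each on GC content and log2 length. The fit and the correction were tested on simulated data. The members, gene lists and motifs were chosen with earlier results of these data known. Named genes were the members, Tdrd7, the called genes of each list other than markers (up to 6 by smallest p), all downstream genes, up to 4 markers a list by highest mean, and the 3 genes nearest in pattern. Other called markers, the TALE relatives and the chromosomal neighbours were named after their values were seen. Some genes that this rule names are not reported here. Alternatives covered pseudocount, filter, scaling, prior, replicate block, GC and length trends, each library left out and the threshold.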

Additional observations from a re-analysis of the deposited data

How the results depend on the processing

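The 1920 calls over all genes became 16 with a prior without the intensity trend, 342 with the transcript GC and length trends removed, 412 with these removed in a fit with the replicate number as a block, 396 with the coding trends removed and 3036 with a crossed pairing of replicates. Scaling to the total without crystallins split them into 766 higher and 1262 lower, against 1077 and 843 as deposited. They numbered 2196 without Tdrd7 null replicate 1, 911 without Tdrd7 null replicate 2, 431 without control replicate 1 and 518 without control replicate 2. Of the 6 members 3 were called as reported. With the prior without the intensity trend, 3 members and 3229 of all 10696 genes had an unadjusted p under 0.05 (limma), and 0 members were called. With the transcript trends removed these were 2 and 2002, and 0 members were called. With the replicate block added to that removal they were 1 and 1918, and again 0 members were called. Leaving out a library gave 2 each time.

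Foxe3 and Pitx3 lost their calls with the prior without the intensity trend at the same size, -0.43 and -0.38 (limma adjusted p = 0.0548 and 0.0547), and with the transcript trends removed, with or without the replicate block, at -0.14 and -0.11. Foxe3 ranged from -0.50 to -0.36 and Pitx3 from -0.42 to -0.33 without 1 library. Sall1 lost its call at -0.17 with TMM or median-ratio scaling, the prior without the trend or the replicate block, at -0.10 with the transcript trends removed with or without the block, and at -0.062 with the coding trends removed. Without 1 library it ranged from -0.21 to -0.14. The prior and the block change only the estimated spread and its degrees of freedom, and with these the p, not the fold change. TMM and median-ratio scaling moved Sall1 from -0.174 to -0.170 and -0.172. Of 18 alternatives, Foxe3 and Pitx3 were called in 15 each and Sall1 in 7.

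Pax6, Six3 and Meis1 were called in 0 of 18 (limma), and changed sign near 0. Pax6 went to -0.027 when scaled to the total without crystallins, which moved the median of all genes to -0.04, and ranged from -0.0204 to 0.0461 without 1 library. Six3 went to 0.028 with the transcript trends removed, with or without the block, and to 0.11 with the coding trends removed, and ranged from -0.12 to 0.0009 without 1 library. Meis1 went to -0.013 when scaled without crystallins and to -0.082 with the transcript trends removed, with or without the block, and ranged from -0.0211 to 0.0691 without 1 library.

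The replicate numbers are not tied to animals or days in the labels. Same-numbered libraries deviated in opposite directions (r = -0.151 over 10696 genes), and the block alone gave 2117 calls over all genes. Count tests on whole reads (2 planned) were not run. The crossed pairing and the coding trends were chosen after seeing the data.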
